A study of Arabidopsis thaliana with 210 samples.

Results

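The 10 genes described here carry the cytokinin signal in Arabidopsis thaliana or release the active hormone. They were chosen by name and role: the receptors AHK2 (AT5G35750), AHK3 (AT1G27320) and AHK4 (AT2G01830), the type-B response regulators ARR1 (AT3G16857), ARR10 (AT4G31920) and ARR12 (AT2G25180), the type-A response regulators ARR5 (AT3G48100), ARR7 (AT1G19050) and ARR15 (AT1G74890), and the hormone-activating enzyme LOG4 (AT3G53450). The deposited table lists 60886 features, 29417 of them nuclear genes, and all 10 genes were among these. The study concerns ARGONAUTE proteins of the apical meristem of the shoot, and this series measured nuclear RNA in sorted nuclei of ecotype Col-0 seedlings. The plants grew on soil in long days, shoot apices were taken 7 days after germination, and every well is labelled as stem cells. The groups were 1 p1 and 1 p2 bulk well made with Smart-seq2, 93 p1 and 93 p2 single nuclei made with Smart-seq2, 8 p1 and 12 p2 single nuclei made with Smart-seq3, and 2 p2 Smart-seq2 wells that received no nucleus. Smart-seq2 and Smart-seq3 both amplify full-length transcripts of single cells or nuclei, and what p1 and p2 stand for is not given.

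Cytokinins are plant hormones that sustain the shoot apical meristem, the stem cell niche from which the shoot grows. The membrane receptors are histidine kinases that pass phosphate to phosphotransfer proteins and on to type-B response regulators, which are transcription factors. These switch on the genes of the type-A response regulators, which damp the signal. In the meristem the homeodomain factor WUS, made in the organising centre below the stem cells, is known to repress several type-A genes.

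Depth differed widely between nuclei. The bulk wells held 1945890 counts on genes in p1 and 1253317 in p2. Smart-seq2 nuclei held 1362 to 8102382 counts in p1 (median 1310185) and 153 to 1236901 in p2 (median 375146). Smart-seq3 nuclei held 34106 to 337249 counts in p1 (median 55305) and 92940 to 747658 in p2 (median 605497). The wells without a nucleus held 7953 and 8676 counts. Fewer than 4200 counts, less than in either of these, were held by 11 p1 and 10 p2 Smart-seq2 wells. Further wells of both p numbers lay below 8676. By depth the p2 wells among them cannot be told from the p2 wells without a nucleus. The samples hold no p1 well without a nucleus, so the background depth of p1 was not measured. All of these wells stay in every share out of 93. The label was checked against marker genes. The stem cell marker CLV3 had a count in 27 of the 186 Smart-seq2 nuclei (14.5%), the epidermal marker PDF1 in 155 (83.3%), the organ primordium marker FIL in 54 (29%) and the photosynthesis gene RBCS1A in 184 (98.9%), and RBCS1A also had 5 counts over the wells without a nucleus. The nuclei are therefore called by their group and not as stem cells. The root hair gene RHD6 had no count in any of the 186. The labels tie no nucleus to a plant, pool or sort, so every group stands as a single sample and groups could not be tested against each other. Intervals of shares take nuclei as independent draws, while those of levels and ratios and all limits cover counting error only. None of them covers differences between plants or sorts. Whether intervals overlap is a description and no test.

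With Smart-seq2 the receptors were detected in unequal shares of nuclei, AHK4 most often and AHK2 least. AHK4, also known as the receptor CRE1/WOL, had at least 1 count in 33 of 93 p1 nuclei (35.5%, 95% Clopper-Pearson interval 25.8% to 46.1%) and in 26 of 93 p2 nuclei (28%, 19.1% to 38.2%), both with Smart-seq2. AHK3 had a count in 26 p1 nuclei (28%, 19.1% to 38.2%) and in 24 p2 nuclei (25.8%, 17.3% to 35.9%). AHK2 had a count in 12 p1 nuclei (12.9%, 6.85% to 21.5%) and in 7 p2 nuclei (7.53%, 3.08% to 14.9%). The intervals of AHK4 and AHK3 overlap in each p number, and that of AHK2 lies below the AHK4 interval in both. Where a receptor was found, its counts ran over a wide range. In nuclei with a count, AHK4 had 1 to 2957 counts in p1 (median 5) and 1 to 690 in p2 (median 41). AHK3 had 1 to 1152 counts in p1 (median 8) and 1 to 469 in p2 (median 109.5). AHK2 had 1 to 468 counts in p1 (median 11) and 5 to 85 in p2 (median 42). A nucleus with all 3 receptors was rare, with 2 in p1 and 1 in p2.

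Among the type-B regulators, the transcription factors of the pathway, ARR1 was the one found most often. ARR1 had a count in 43 of 93 p1 nuclei and in 43 of 93 p2 nuclei (46.2%, 35.8% to 56.9% in each). ARR10 had a count in 22 p1 nuclei (23.7%, 15.5% to 33.6%) and in 10 p2 nuclei (10.8%, 5.28% to 18.9%). ARR12 had a count in 16 p1 nuclei (17.2%, 10.2% to 26.4%) and in 9 p2 nuclei (9.68%, 4.52% to 17.6%). The ARR1 interval lies above those of ARR10 and ARR12 in each p number. Much of the ARR1 signal in p1 sat in 1 nucleus, which had 12079 of the 16172 counts (74.7%). In p2 the nucleus with the most ARR1 had 600 of 4620 counts (13%). ARR10 was also concentrated, and 1 p1 nucleus had 3073 of its 4541 counts (67.7%). The last 69 bases of ARR1 in the annotation overlap the gene AT3G16860 on the other strand, and reads there cannot be told apart without strand.

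The type-A regulators, the direct targets that damp the signal, ranged from the most to nearly the least detected of the 10 genes. ARR7 had a count in 53 of 93 p1 nuclei (57%, 46.3% to 67.2%) and in 45 of 93 p2 nuclei (48.4%, 37.9% to 59%). ARR5 had a count in 20 p1 nuclei (21.5%, 13.7% to 31.2%) and in 23 p2 nuclei (24.7%, 16.4% to 34.8%). ARR15 had a count in 8 p1 nuclei (8.60%, 3.79% to 16.2%) and in 6 p2 nuclei (6.45%, 2.40% to 13.5%). The ARR7 interval lies above those of ARR5 and ARR15 in each p number. ARR7 was also the gene least dependent on single nuclei, since the nucleus with the most ARR7 had 14.2% of its 13739 counts in p1 and 7.73% of its 9676 counts in p2. In nuclei with a count, ARR7 had 1 to 1945 counts in p1 (median 9) and 1 to 748 in p2 (median 154).

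The type-A genes are the family members for which type-B regulators are known to act at the promoter, so their upstream windows are shown. Each is the 250 bases before the annotated start of the gene in the TAIR10.1 assembly, on the gene's strand, and capitals mark the core motif AGATT of type-B regulators on either strand. The windows are chr3:17760951-17761200 for ARR5, chr1:6579315-6579564 for ARR7 and chr1:28133026-28133275 for ARR15, all on the minus strand.
ARR5: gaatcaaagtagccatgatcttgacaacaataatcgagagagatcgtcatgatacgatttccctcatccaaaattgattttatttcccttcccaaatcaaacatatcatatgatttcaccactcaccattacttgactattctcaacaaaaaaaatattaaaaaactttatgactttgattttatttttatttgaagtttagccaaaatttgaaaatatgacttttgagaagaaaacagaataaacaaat
ARR7: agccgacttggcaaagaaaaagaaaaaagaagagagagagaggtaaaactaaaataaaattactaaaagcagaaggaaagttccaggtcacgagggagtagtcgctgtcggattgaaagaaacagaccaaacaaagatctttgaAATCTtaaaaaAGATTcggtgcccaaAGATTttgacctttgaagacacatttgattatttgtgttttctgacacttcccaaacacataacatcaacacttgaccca
ARR15: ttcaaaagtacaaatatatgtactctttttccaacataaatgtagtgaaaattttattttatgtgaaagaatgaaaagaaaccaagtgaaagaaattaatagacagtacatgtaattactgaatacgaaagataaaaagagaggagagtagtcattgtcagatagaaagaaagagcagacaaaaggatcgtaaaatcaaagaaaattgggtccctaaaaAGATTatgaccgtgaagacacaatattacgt
The ARR7 window held 3 matches, the ARR15 window 1 and the ARR5 window none. Of the other windows, AHK4 had 2 matches and ARR12 and LOG4 had 1 each, while AHK2, AHK3, ARR1 and ARR10 had none. The motif is common, with at least 1 match in 63.7% of the windows of 27443 protein-coding genes (median 1). A match is a description of the letters and was not tested as a binding site.

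LOG4 turns inactive cytokinin nucleotides into the free hormone and is known from the epidermal layer of the meristem. It had no count in any of the 93 p1 Smart-seq2 nuclei, which by the Clopper-Pearson interval leaves room for up to 3.89% of nuclei with a count (a limit of 3 nuclei is 3.23%). This bounds nuclei with a count, not nuclei that express the gene. In p2 it had 59, 41 and 6 counts in 3 of 93 Smart-seq2 nuclei (3.23%, 0.67% to 9.14%), and 10 counts in 1 of 12 Smart-seq3 nuclei. All 4 of these nuclei also had PDF1, the epidermal marker, with 2217, 126, 528 and 347 counts in the same order. None had a count of the epidermal regulator ATML1 or of the meristem gene STM. The primordium marker FIL had 78 and 112 counts in the nuclei with 59 and 41 LOG4 counts, and none in the others. The Smart-seq2 nucleus with 41 LOG4 counts also had 89 counts of ARR15, 98 of ARR5 and 70 of ARR7. The Smart-seq3 nucleus with LOG4 had 274 counts of CLV3, and the Smart-seq2 nucleus with 41 LOG4 counts had 1. PDF1 was present in 83.3% of all Smart-seq2 nuclei and in 69.9% of those of p2. In the p2 Smart-seq2 nuclei FIL was in 22.6%, ATML1 in 40.9%, STM in 31.2% and CLV3 in 6.45%.

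**Figure D1:**
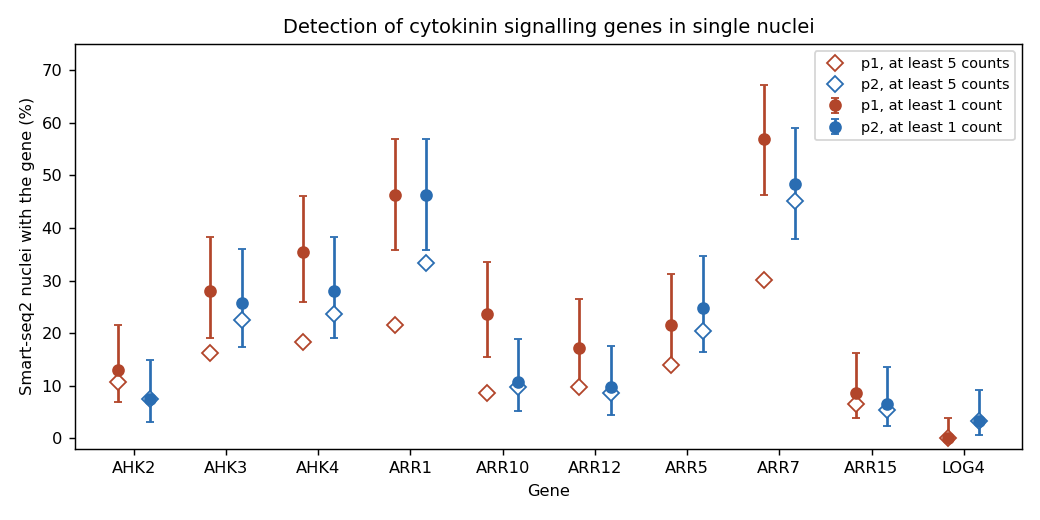
Share of Smart-seq2 nuclei (percent) with each of the 10 genes, for p1 (93 nuclei, red) and p2 (93 nuclei, blue). Circles with 95% Clopper-Pearson bars are shares from 1 count and open diamonds are shares with at least 5 counts. ARR7 and ARR1 stand highest and LOG4 lowest, and the diamonds of p1 fall further below their circles than those of p2.

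How many of the genes counted as commonly detected was compared with all nuclear genes. At least 20% of p1 nuclei had a count for 6 of the 10 genes, and 27.5% of all nuclear genes reached that share. At least 20% of p2 nuclei had a count for 5 of the 10, and 15.1% of all nuclear genes did. The p1 figure depends on low counts: with at least 5 counts required, ARR1 and ARR7 alone reached 20% in p1, against 11.2% of all nuclear genes. The p2 count was again 5, against 10% of all nuclear genes.

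Whether p1 exceeded p2 depended on how low counts were treated. From 1 count, the share of nuclei was higher in p1 than in p2 for 7 of the 10 genes, equal for ARR1 and lower for ARR5 and LOG4. Among nuclear genes detected in at least 10% of these nuclei, 81% had the higher share in p1. ARR15 (7.53% of nuclei) and LOG4 (1.61%) are outside that set. With at least 5 counts, 3 of the 10 genes (AHK2, ARR12 and ARR15) had the higher share in p1. Among nuclear genes with at least 5 counts in at least 10% of these nuclei, 53.1% had the higher share in p1. Those 3 genes are outside that set, with 9.14% of nuclei for AHK2 and ARR12 and 5.91% for ARR15. AHK3, AHK4, ARR1, ARR5 and ARR7 are inside it, and each had the higher share in p2. ARR7 had at least 5 counts in 28 p1 nuclei (30.1%, 21% to 40.5%) and 42 p2 nuclei (45.2%, 34.8% to 55.8%). ARR1 had them in 20 p1 nuclei (21.5%, 13.7% to 31.2%) and 31 p2 nuclei (33.3%, 23.9% to 43.9%). These intervals overlap. Counts of 1 to 4 were more frequent in p1: ARR1 had them in 23 p1 nuclei and 12 p2 nuclei, ARR7 in 25 and 3, ARR10 in 14 and 1, and AHK4 in 16 and 4. The wells without a nucleus had 1 count of ARR7 in 1 well and none of the other 9 genes, at a depth where 3 counts correspond to 346 and 377 CPM, counts per 1000000 counts on genes. Both are p2 wells, so counts in the absence of a nucleus were not measured for p1.

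Among nuclei that held a gene with at least 5 counts, its median level was higher in p2 for 8 of 9 genes. The median was higher in p2 for 65.2% of all nuclear genes with such nuclei in both p numbers. For ARR7 the median was 200.1 CPM in p1 (28 nuclei, 2.31 to 641) and 316 CPM in p2 (42 nuclei, 9.14 to 1635). For ARR1 it was 68.2 CPM in p1 (20 nuclei, 2.60 to 2116) and 205 CPM in p2 (31 nuclei, 16.1 to 1160). For ARR5 it was 63.3 CPM in p1 (13 nuclei, 10.4 to 133) and 133 CPM in p2 (19 nuclei, 15.6 to 763). All of these ranges overlap. The receptor AHK4 was the exception, with a median of 177 CPM in p1 (17 nuclei) and 106 CPM in p2 (22 nuclei). LOG4 had no such p1 nuclei. A count of 5 is a smaller CPM in a deeper nucleus, and p1 nuclei were the deeper ones.

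**Figure D2:**
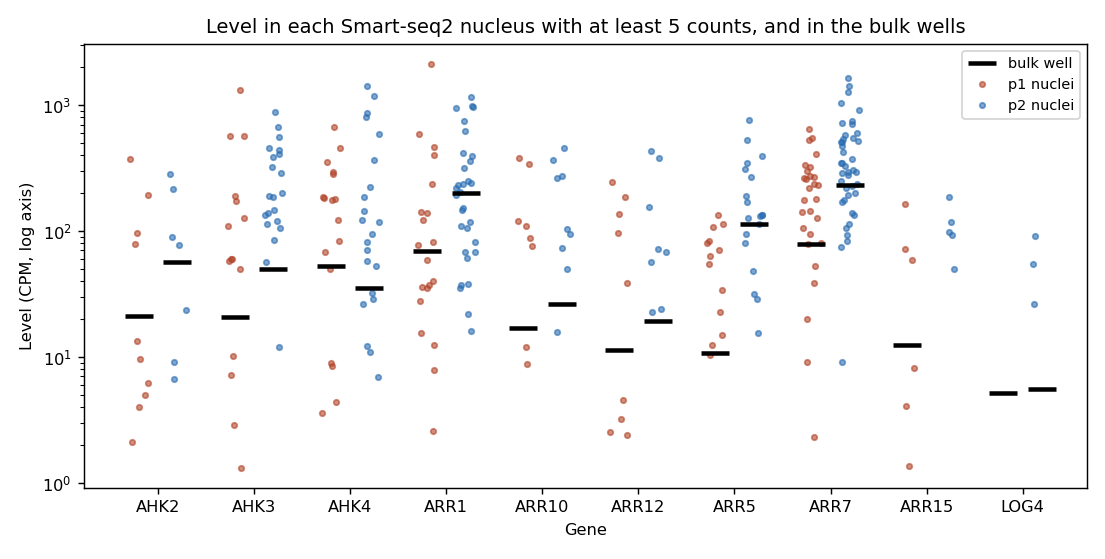
Level (CPM, log axis) of each gene in every Smart-seq2 nucleus with at least 5 counts, for p1 (red points) and p2 (blue points), with the bulk well of the same p number as a black bar. Levels of a gene differ widely between nuclei, LOG4 has a p1 bar but no p1 points, and ARR15 has p2 points but no p2 bar. Nuclei with fewer counts of the gene are not drawn.

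Per kilobase of transcript, ARR7 had the highest level of the 10 genes in the bulk wells and in the summed nuclei. In the p1 bulk well it stood at 83.4 CPM per kb, followed by ARR1 at 26, AHK4 at 11.8 and ARR15 at 11.4, and the other 6 genes lay between 4.55 (AHK3) and 7.81 (ARR10). Beyond ARR1, the intervals of neighbours in that order overlapped. In the p2 bulk well ARR7 stood at 246 CPM per kb, followed by ARR5 at 78.7 and ARR1 at 74.7, whose intervals overlapped. The next gene, AHK2, was at 12.7 CPM per kb, and ARR15 had no count. In the summed Smart-seq2 nuclei ARR7 stood at 109 CPM per kb in p1 and 263 in p2. ARR1 was next in p1 at 45.3 CPM per kb. In p2 ARR5 at 46 and ARR1 at 44.4 were next, and their intervals overlapped. The p1 place of ARR1 rests on 1 nucleus: when the highest nucleus of each gene was left out, a setting added after the data had been seen, ARR1 stood at 12, ARR5 at 11.1 and AHK4 at 10.8 CPM per kb. In a bulk well or a sum of nuclei, fewer nuclei with a gene and less RNA per nucleus cannot be told apart.

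The bulk wells were then set against the sums of the 93 Smart-seq2 nuclei of the same p number, which asks whether single nuclei add up to the bulk. None of the 10 genes passed 4-fold with the same sign in both p numbers. Over all nuclear genes, 1.3% were higher in bulk and 1.59% lower by that rule. The median log2 ratio of the 10 genes was -0.39 in p1 and 0.47 in p2, against -0.01 and -0.02 over all genes. ARR7 had 153 counts (78.6 CPM) in the p1 bulk well, against 13739 counts (103 CPM) in the p1 nuclei, a log2 ratio of -0.38 (-0.62 to -0.16). The p2 bulk well had 291 counts (232 CPM), against 9676 (248 CPM) in the nuclei, a log2 ratio of -0.10 whose interval includes 0 (-0.27 to 0.07). ARR7, the most abundant of the genes per length, lay within 1.31-fold of the sum in both.

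Among receptors, AHK2 was higher in bulk than in the summed nuclei in both p numbers and AHK3 and AHK4 were lower. AHK2 had 41 counts (21.1 CPM) in the p1 bulk well, against 10.1 CPM in the p1 nuclei, a log2 ratio of 1.06 (0.57 to 1.5). The p2 bulk well had 71 counts (56.6 CPM), against 7.28 CPM in the nuclei, a log2 ratio of 2.96 (2.56 to 3.34). This was the only ratio between libraries that both held counts to pass 4-fold, as 7.98% of nuclear genes did in p2 upward. AHK3 had log2 ratios of -0.80 in p1 (-1.29 to -0.35) and -0.88 in p2 (-1.26 to -0.52). AHK4 had log2 ratios of -0.39 in p1 (-0.68 to -0.11) and -1.08 in p2 (-1.55 to -0.65). Its ratio in p1 turned to 0.12 without the nucleus that had the most AHK4, and to 0.31 with equal weight for every nucleus.

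The type-B genes and ARR5 had ratios of opposite sign in the p numbers. ARR1 had 135 counts (69.4 CPM) in the p1 bulk well, against 121 CPM in the p1 nuclei, a log2 ratio of -0.80 (-1.06 to -0.56). The p2 bulk well had 250 counts (199 CPM), against 118 CPM in the p2 nuclei, a log2 ratio of 0.75 (0.56 to 0.94). The p1 value rests on 1 nucleus, and without it the ARR1 ratio in p1 was 1.12. With equal weight for every nucleus it was -0.12. ARR10 had ratios of -1.0 in p1 (-1.54 to -0.51) and 0.20 in p2 (-0.35 to 0.70), and 0.54 in p1 without its highest nucleus or 0.21 with equal weight. ARR12 had -0.36 in p1 (-1.03 to 0.25) and 0.77 in p2 (0.12 to 1.37), and 0.41 in p1 without its highest nucleus. Its p2 ratio turned to -1.55 with equal weight for every nucleus and was 1.42 without the highest nucleus. ARR5 had 21 counts (10.8 CPM) in the p1 bulk well, against 18.9 CPM in the nuclei, a log2 ratio of -0.81 (-1.51 to -0.20). The p2 bulk well had 143 counts of ARR5 (114 CPM), against 66.8 CPM in the p2 nuclei, a log2 ratio of 0.77 (0.52 to 1.02).

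The least detected genes gave the least certain ratios. ARR15 had 24 counts (12.3 CPM) in the p1 bulk well, against 7.38 CPM in the p1 nuclei, a log2 ratio of 0.74 (0.09 to 1.32). This ratio was 1.92 without the highest nucleus and 1.89 with equal weight for every nucleus. The p2 bulk well had no count of ARR15, where 3 counts would be 2.39 CPM, against 7.43 CPM in the nuclei. With 3 counts entered for the bulk well, ARR15 was 3.11-fold lower in bulk. LOG4 had 10 counts (5.14 CPM) in the p1 bulk well and none in any of the 93 p1 nuclei, where 3 counts over the group would be 0.0224 CPM. With 3 counts entered for the nuclei, LOG4 was 229-fold higher in the p1 bulk well, and 11.4% of nuclear genes passed 4-fold upward in p1. This value is no lower bound across nuclei. The p2 Smart-seq2 nuclei with LOG4 held 59, 41 and 6 counts, and 1 such nucleus in p1 would lower it. In p2 LOG4 had 7 counts (5.59 CPM) in the bulk well, against 2.72 CPM in the nuclei, a log2 ratio of 1.04 whose interval includes 0 (-0.31 to 2.13), and 2.19 without its highest nucleus.

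**Figure D3:**
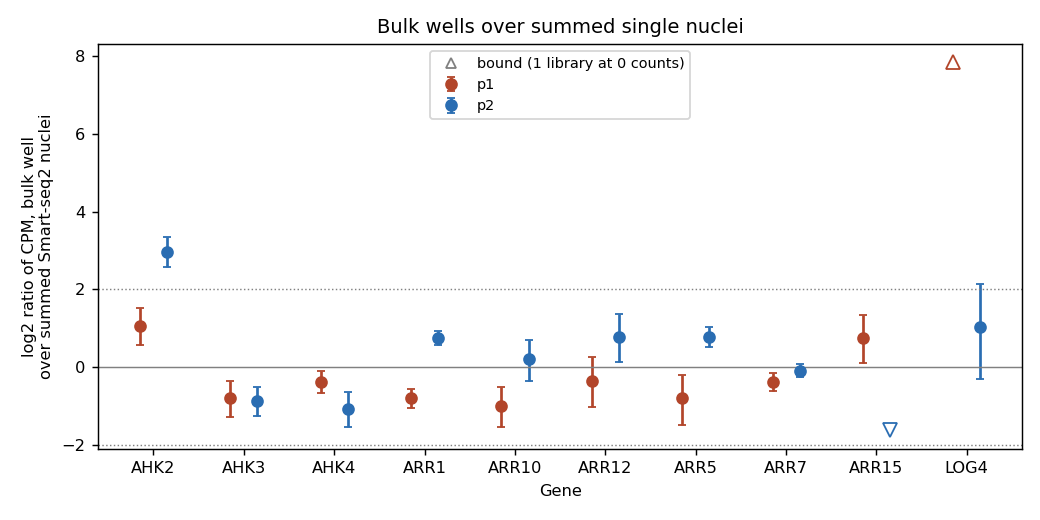
Log2 ratio of CPM, bulk well over the sum of 93 Smart-seq2 nuclei, for p1 (red) and p2 (blue), with 95% exact binomial bars and dotted lines at 4-fold. Open triangles are bounds where 1 of the libraries had no count. AHK2 lies above 0 and AHK3 and AHK4 below 0 in both p numbers, while ARR1, ARR10, ARR12, ARR5 and ARR15 change sign.

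Smart-seq3 was compared with Smart-seq2 within each p number, with 8 and 12 Smart-seq3 nuclei. The median log2 ratio over all genes was -1.19 in p1 and -2.42 in p2, so the values of the 10 genes are read beside these. With equal weight for every nucleus these medians were -0.23 and -0.57. ARR10 and ARR15 were lower beyond 4-fold in both p numbers, as were 19.3% of nuclear genes, and none of the 10 genes was higher in both, as 2.25% were. In p1 alone 3 of 9 genes with a ratio were lower beyond 4-fold, against 37.8% of nuclear genes. In p2 alone 6 of 10 were, against 54.2%. ARR10 had 1 count in the p1 Smart-seq3 nuclei, against 4541 in the p1 Smart-seq2 nuclei, a log2 ratio of -4.91 (-10.21 to -2.43). The p2 nuclei had 3 counts with Smart-seq3, against 897 with Smart-seq2, a log2 ratio of -5.45 (-7.73 to -3.90). ARR15 had 1 count with Smart-seq3, against 987 with Smart-seq2, in p1, a log2 ratio of -2.71 (-8.01 to -0.22). This value rests on 1 count and was -0.24 with equal weight for every nucleus, which ends the call for ARR15, while ARR10 stayed beyond 4-fold at -2.74 in p1 and -5.57 in p2. In p2 ARR15 had none with Smart-seq3, against 290 with Smart-seq2, a value 14.1-fold lower when 3 counts are entered for Smart-seq3.

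ARR7 was seen in few Smart-seq3 nuclei but at high levels in p2. It had 324, 309, 142 and 120 counts in 4 of 12 p2 Smart-seq3 nuclei (33.3%, 9.92% to 65.1%) and none in the other 8. In p1 it had 1 count in each of 2 of 8 Smart-seq3 nuclei. The log2 ratio of Smart-seq3 over Smart-seq2 was -0.66 in p2 (-0.76 to -0.56) and -5.51 in p1 (-8.55 to -3.65). ARR7 thus lay above the median of all genes in p2 and below it in p1. ARR1 lay above that median in both, at 1.15 in p1 (0.96 to 1.33) and -0.45 in p2 (-0.59 to -0.32). When every nucleus weighed the same, ARR1 stood at 0.38 in p1, above the median, and at -0.88 in p2, below it. Both ARR1 values rest on single nuclei, with 97.5% of the counts in 1 p1 nucleus (231 counts) and 97.2% in 1 p2 nucleus (479 counts). AHK3 was at 0.47 in p1 (0.01 to 0.90) and -6.02 in p2 (-7.23 to -5.04). It had 44 Smart-seq3 counts in p1 and 8 in p2, and 38 of the 44 came from 1 nucleus.

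Receptor, type-B and type-A genes were counted together in the same nucleus to see how often these 3 roles were found together. Phosphotransfer genes were not part of this count. At least 1 of each was present in 30 of 93 p1 Smart-seq2 nuclei (32.3%, 22.9% to 42.7%). In p2 they were together in 21 of 93 (22.6%, 14.6% to 32.4%). None of the 10 genes was present in 13 p1 nuclei and 17 p2 nuclei. A type-A gene was found without a receptor or type-B gene in 8 p1 nuclei and 12 p2 nuclei. Depth moved with these numbers. The p1 nuclei without any of the genes had a median of 3889 counts, those with 1 or 2 genes 26550.5 and those with 3 or more 2015167. The first of these medians lies below the 7953 and 8676 counts of the wells without a nucleus, which are p2 wells. In p2 the medians were 215023, 355829 and 632934 counts. After thinning every nucleus to 4200 counts, all 3 roles were found together in 1 of 82 p1 nuclei (1.22%) and, for p2, in 5 of 83 (6.02%). In nuclei with at least 50000 counts they were together in 27 of 57 p1 nuclei (47.4%) and, for p2, in 21 of 81 (25.9%).

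**Figure D4:**
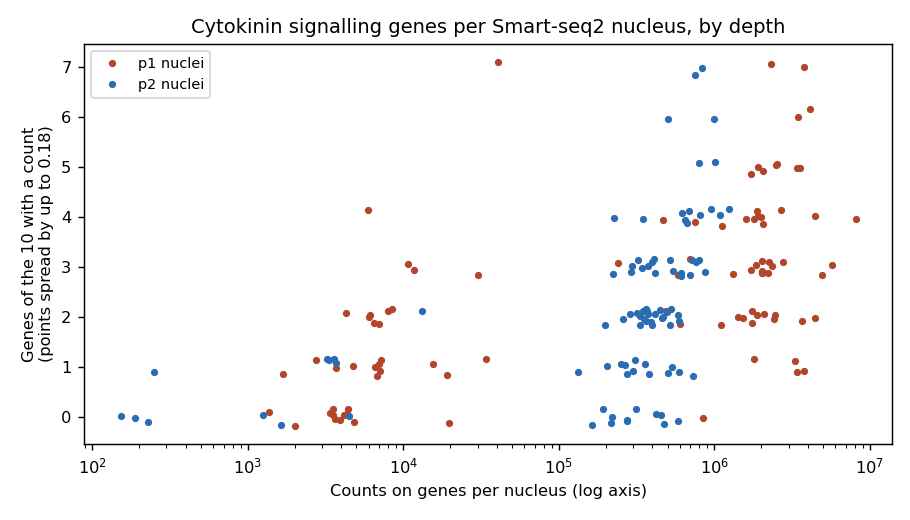
Number of the 10 genes with a count in each Smart-seq2 nucleus, against the counts on genes of that nucleus (log axis), for p1 (red) and p2 (blue). Nuclei with 5 or more of the genes had high totals except for 1 p1 nucleus with 7 genes and 40656 counts, and the deep p1 nuclei reach further right than any p2 nucleus.

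ARR7 was found more often in nuclei with CLV3, a peptide gene of the stem cells, than in nuclei without it. It was present in 23 of 27 nuclei with CLV3 (85.2%, 66.3% to 95.8%), against 75 of 159 without (47.2%, 39.2% to 55.2%). The nuclei with CLV3 were deeper, with a median of 1726503 counts, against 375146. Within p1, ARR7 was in 81% of 21 nuclei with CLV3, against 50.0% of 72 without. Within p2 it was in 6 of 6 nuclei with CLV3, against 44.8% of 87 without, at similar median depths of 370474 and 375146 counts. Among nuclei with at least 50000 counts of both p numbers, the shares were 84.6% (65.1% to 95.6%) with CLV3 and 54.5% (44.8% to 63.9%) without, and the intervals do not overlap. That pooled gap also holds a gap in depth and p number: the nuclei with CLV3 had a median of 1735659 counts, against 586033, and 20 of the 26 came from p1. Within each p number the intervals overlap, in p1 at 16 of 20 (56.3% to 94.3%), against 24 of 37 (47.5% to 79.8%), and in p2 at 6 of 6 (54.1% to 100%), against 37 of 75 (37.6% to 61.1%). After thinning to 4200 counts, 3 p1 and 3 p2 nuclei still had CLV3, and ARR7 was left in 1 and 2 of them.

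Shares of several other genes also differed by marker, before depth was matched. ARR7 was in 66.3% of 89 nuclei with ATML1 (55.5% to 76%), against 40.2% of 97 without (30.4% to 50.7%), and in 72.2% against 47% among nuclei with at least 50000 counts. Both genes were more frequent in p1. ARR7 was in 70.2% of p1 and 53.1% of p2 nuclei with at least 50000 counts, and ATML1 in 54.8% of all p1 and 40.9% of all p2 nuclei. The part of depth and p number in this pooled gap was not tested. ARR10 was in 31% of 71 nuclei with STM, the homeobox gene of the meristem (20.5% to 43.1%), against 8.70% of 115 without (4.25% to 15.4%). Among deep nuclei ARR10 was in 33.9% with STM, against 12.2% without. Low counts matter for ARR10 in p1: with at least 5 counts of both genes required, it was in 2 of 18 nuclei with STM and in 6 of 75 without, whereas in p2 it was in 7 of 26 with STM and in 2 of 67 without.

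The primordium marker FIL went with higher shares of ARR5, ARR1 and AHK4. ARR5 was in 38.9% of 54 nuclei with FIL (25.9% to 53.1%), against 16.7% of 132 without (10.8% to 24.1%). This gap came mainly from p2, with 55% and 16.4% among deep nuclei with and without FIL, against 33.3% and 26.7% in p1. ARR1 was in 64.8% of nuclei with FIL (50.6% to 77.3%), against 38.6% without (30.3% to 47.5%). AHK4 was in 46.3% with FIL (32.6% to 60.4%), against 25.8% without (18.5% to 34.1%), and its intervals overlap. Nuclei with FIL had a median of 757420 counts, against 355829 without. Among nuclei with at least 50000 counts ARR1 was in 70.2% with FIL (55.1% to 82.7%), against 45.1% without (34.6% to 55.8%), and AHK4 in 51.1% with FIL (36.1% to 65.9%), against 30.8% without (21.5% to 41.3%). Both pairs of intervals overlap.

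The receptor AHK2 and the type-B gene ARR12 were found more often in nuclei with CLV3. AHK2 was in 8 of 27 nuclei with CLV3 (29.6%, 13.8% to 50.2%), against 11 of 159 without (6.92%, 3.50% to 12%). ARR12 was in 9 of 27 with CLV3 (33.3%, 16.5% to 54%), against 16 of 159 without (10.1%, 5.86% to 15.8%). All 9 came from p1, where ARR12 was in 9 of 21 nuclei with CLV3 and 7 of 72 without, whereas in p2 it was in 0 of 6 with CLV3 and 9 of 87 without. Among deep nuclei both genes were in 30.8% with CLV3 (14.3% to 51.8%), against 9.82% without (5.01% to 16.9%), and the intervals overlap. The part of depth in these gaps was not tested further.

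**Figure D5:**
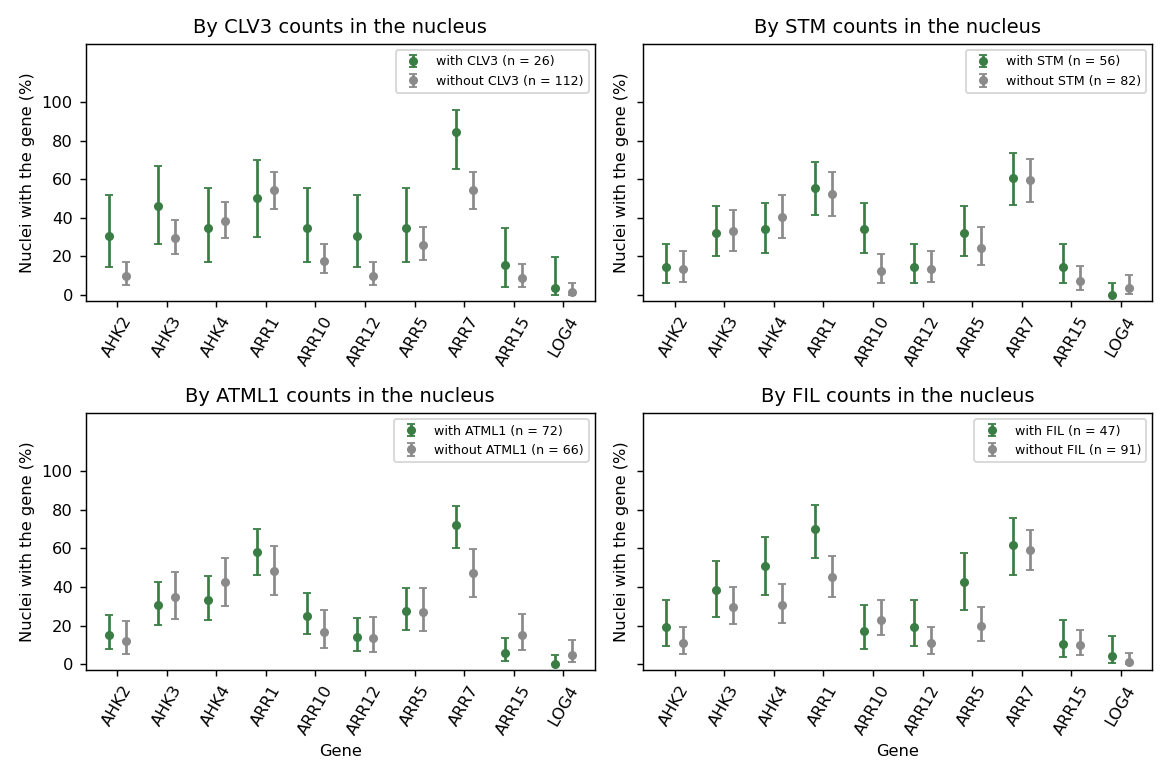
Share (percent) of Smart-seq2 nuclei with at least 50000 counts, p1 and p2 together, that had each gene, among nuclei with (green) and without (grey) counts of CLV3, STM, ATML1 or FIL. Bars are 95% Clopper-Pearson intervals. The intervals with and without the marker lie apart for ARR7 by CLV3 and by ATML1 and for ARR10 by STM, and overlap for the other pairs drawn. For ARR7 by CLV3 they overlap within p1 and within p2, and 20 of the 26 nuclei with CLV3 came from p1. The cut at 50000 counts does not match depth between the compared nuclei. The part of depth and p number in the gaps was not tested.

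WUS was found in 5 of the 186 Smart-seq2 nuclei, and all 5 had ARR7. Their ARR7 counts were 319 and 194 in the p1 nuclei and 38, 65 and 39 in the p2 nuclei. None of the 5 had ARR5, ARR15, ARR10, ARR12 or LOG4. AHK4 was in 3 of them, with 403, 16 and 115 counts, AHK2 in 2, AHK3 in 2 and ARR1 in 1. All 5 were deep, with 334209 to 2426115 counts. Among all Smart-seq2 nuclei with at least 50000 counts, ARR7 was in 60.1%, ARR5 in 27.5% and ARR15 in 10.1%. With 5 nuclei, and with 1 and 3 counts of WUS in a pair of them, these values describe single nuclei. Whether WUS acts on these genes was not tested.

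The other genes of the pathway were listed by role: phosphotransfer proteins, the remaining response regulators, enzymes that make, activate or break down cytokinin, and cytokinin response factors. Of the 58 genes in all, with the 10 included, 44 had a count in the p1 Smart-seq2 nuclei and 42 in those of p2, against 67.7% and 72.4% of all nuclear genes. A share of 20% of nuclei was reached by 18 of the 58 in p1 and 12 in p2, against the 27.5% and 15.1% of nuclear genes given above. The type-A gene ARR4 was in 89 of 186 nuclei (47.8%), next to ARR7 in 98 (52.7%). The response factor gene CRF2 was in 34.4%, the activating enzyme gene LOG1 in 31.2% and LOG8 in 24.2%. The breakdown enzyme genes CKX5 and CKX7 were in 30.1% and 29.6%, the synthesis gene IPT2 in 23.7%, and the phosphotransfer genes AHP3 and AHP2 in 19.9% and 19.4%. LOG4 was therefore not the most detected gene of its family, which LOG1 led with 58 nuclei to 3. The 2 trans-hydroxylation genes had 1 Smart-seq2 nucleus between them. With Smart-seq3, CYP735A2 had a count in 6 of the 8 nuclei from p1 (12 counts in all) and in 1 of the 12 from p2. CYP735A1 had one in a single p1 nucleus. CYP735A2 was not alone in this. Other genes nearly absent with Smart-seq2 had counts in p1 Smart-seq3 nuclei, ARR18 in 8 of 8, IPT6 in 6, and IPT4 and IPT7 in 4 each. ARR3, LOG2 and IPT1 had none there. All of these genes were named after their values were seen.

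Genes whose level ran most alike with a member were sought over 138 Smart-seq2 nuclei with at least 50000 counts and 7775 nuclear genes found in at least 20% of them. For ARR7 the first was AT1G19040 (Spearman rho 0.41, 0.17 in p1 and 0.49 in p2). This gene lies at chr1:6576077-6577413, 419 bases from ARR7 at chr1:6577833-6579314, and on the opposite strand, so that the 3′ ends of the genes face each other. Whether reads past one end were counted for the other gene was not tested. ARR7 was in 29 of 33 nuclei with AT1G19040 (87.9%, 71.8% to 96.6%), against 54 of 105 without (51.4%, 41.5% to 61.3%), at median depths of 716273 and 610606 counts. AT1G19040 was picked from 7775 genes for its rho with ARR7 in these same nuclei. A gap in shares follows from that choice and adds no support, whatever the intervals. The gene on the other side of ARR7, AT1G19060, had a count in 1 of these nuclei. For ARR5 the first was SFP2 (rho 0.54) and for ARR10 it was ATFP8 (0.49), and the first for ARR1, AHK4 and AHK3 stood at 0.44, 0.39 and 0.38. Over the 15 pairs of members tested, rho lay between -0.04 and 0.22. All of these correlations across nuclei are weak, share library and depth, and are a description only.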

How the data were processed

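Nuclear RNA was measured in 210 wells: 206 single nuclei, 2 bulk wells and 2 wells without a nucleus. The deposited file is 1 table of the authors' estimated counts, with 11.2% of the values above 0 not whole. TAIR10 and DESeq2 are named in the submitters' processing notes, and the aligner and counter are not given in the sources used here. Bulk wells held 50 nuclei per the labels, but their columns carry a prefix with the number 10.

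Values were rounded to whole numbers. Library sizes were counts on genes, without transposable elements and the reporter. Shares have Clopper-Pearson intervals, sums exact Poisson intervals and ratios exact binomial intervals. Ratios needed 50 counts over the libraries. A library at 0 entered with 3 counts. A difference meant 4-fold in p1 and p2. For equal depth, nuclei were thinned to 4200 counts (the tenth percentile), which left out 11 p1 and 10 p2 nuclei. Positions and transcript lengths are those of TAIR10.1, where all 58 pathway genes were found. No stretch of 50 bases of a member's transcript occurs elsewhere in that genome. Alternatives used edgeR 4.0.16 (TMM), DESeq2 1.42.0 (median of ratios), Python 3.11.15 and SciPy 1.17.1. The text names all 10 members, the most detected genes of each pathway family and the 3 genes most alike to a member, of which the first is given. AHP6 and the genes set beside CYP735A2 were named after their values were seen. The members and lists were chosen with earlier results of these data known. The ratio rule and its intervals were tested on simulated Poisson counts drawn around a shared mean. That simulation holds no unevenness between nuclei. It does not show how the rule or intervals behave where a single nucleus holds most counts of a gene.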

Additional observations from a re-analysis of the deposited data

Results flagged for a closer look

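In the 8 p1 Smart-seq3 nuclei, the highest nucleus stood far from the others for 6 of the 10 genes. Chance flags about 1 in 20 groups of normally distributed values, which groups with most nuclei at 0 are not, so that rate was not shown to hold here. Most of the other nuclei had no or 1 count. ARR1 reached 685 CPM (231 counts) and AHK4 154 CPM (52 counts) in the same nucleus, the deepest of the group with 337249 counts. ARR5 reached 144 CPM (15 counts) in another nucleus. ARR12 reached 52.4 CPM (3 counts) and ARR10 17.5 CPM (1 count) in the nucleus with 57245 counts, and ARR15 22.6 CPM (1 count) in the nucleus with 44215.

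For 5 genes the log2 ratio of bulk over summed Smart-seq2 nuclei had opposite signs in p1 and p2, and the difference was not tested. The values were -0.80 and 0.75 for ARR1, -1.0 and 0.20 for ARR10, -0.36 and 0.77 for ARR12, -0.81 and 0.77 for ARR5, and 0.74 and a bound of -1.63 for ARR15. For 3 genes the log2 ratio of Smart-seq3 over Smart-seq2 had opposite signs in p1 and p2, also untested. The values were 0.0053 and -5.38 for AHK2, 0.47 and -6.02 for AHK3, and 1.15 and -0.45 for ARR1.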

How the results depend on the processing

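Detection depended on depth and on low counts. The genes found in at least 20% of p1 nuclei numbered 2 with at least 5 counts and 1 after thinning, against 6, and those of p2 numbered 2 after thinning, against 5. All 3 roles together were found in 14% of p1 nuclei with at least 5 counts, 1.22% after thinning and 47.4% of nuclei with at least 50000 counts, and in 6.02% of p2 nuclei after thinning. A receptor was found in 37.6%, 22% and 75.4% of p1 nuclei under the same settings and in 21.7% of p2 nuclei after thinning. Without the nucleus with the most counts of each gene, 1 gene (LOG4) was higher in bulk beyond 4-fold in both p numbers, against 0. That setting takes counts out of the nuclei and leaves the bulk whole, so by construction it favours a higher ratio. The LOG4 value in p1 also rests on 3 counts entered for the nuclei. With equal weight for every nucleus, 1 gene (ARR10) was lower with Smart-seq3 in both, against 2, and ARR15 was the one lost. The genes with a count in the wells without a nucleus numbered 0 to 1 when either well was left out. The cause of these changes was not tested. TMM moved the median log2 ratio of bulk over nuclei over all genes to -0.15 in p1 and -0.19 in p2. Under TMM the Smart-seq3 ratios in p1 turned to -0.84 for AHK2 and -0.37 for AHK3, with the all-gene median at -1.96. With equal weight the ratio of ARR7 in bulk in p2 turned to 0.19, and the Smart-seq3 ratios in p1 to -0.75 for AHK3 and 0.57 for ARR5. With library sizes of nuclear genes that of AHK2 turned to -0.11. No paired analysis was possible because each group counts as 1 sample and no result comes from a test.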

Other observations

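Low counts in p1 were set against the nucleus with the most counts of the same gene. Over the 9 genes with a p1 nucleus of at least 100 counts, counts of 1 to 4 were found in 40 of 159 comparisons with wells that shared a block of 8 replicate numbers, or the place in that block, with the top well (25.2%), against 67 of 669 other comparisons. Over the 7 such genes in p2 they were found in 7 of 123 and 21 of 521. The p1 difference was unequal among genes. For ARR10 in p1 they were in 11 of 18 and 3 of 74 wells, for ARR5 in 6 of 18 and 1 of 74, and for ARR1 in 9 of 18 and 14 of 74. The receptors went the other way, with 0 of 18 and 2 of 74 for AHK2, 1 of 18 and 10 of 74 for AHK3, and 2 of 17 and 14 of 75 for AHK4. The labels give no plate positions, and this grouping of replicate numbers was chosen after the counts had been seen.

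AHP6, an inhibitor of cytokinin signalling that works in place of the phosphotransfer proteins, was found in 13 of 186 Smart-seq2 nuclei. All 13 had PDF1, 7 had FIL, 6 had ATML1, 1 had STM and none had CLV3. Over the 186 nuclei PDF1 was in 83.3%, FIL in 29%, ATML1 in 47.8%, STM in 38.2% and CLV3 in 14.5%. Those 186 include shallow wells, whereas the nuclei with AHP6 held 163048 to 3754302 counts. Of the 13, 4 came from p1 and 9 from p2. Over the 93 p2 nuclei PDF1 was in 69.9%, FIL in 22.6%, ATML1 in 40.9%, STM in 31.2% and CLV3 in 6.45%. The lowest PDF1 values in the nuclei with AHP6 were 1, 1, 2 and 4 counts. It had 0 counts in the p1 bulk well and 1 in the p2 bulk well. AHP6 was named after its values were seen.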
